A study of Mus musculus with 4 samples.

Results

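In CUT&RUN of MEL cells, most regions listed with an antibody against GFP had no region of an anti-Myb list in their neighbourhood. These isolated anti-GFP peaks were chosen by the coordinates of the 2 lists on the mouse build mm9: the nearest anti-Myb centre on the same chromosome had to lie more than 10000 bp away. The rule was met by 5738 of the 7327 anti-GFP peaks, which is 78.3% of the list (exact 95% interval 77.4% to 79.3%). The nearest anti-Myb centre lay within 10 kb of 1587 others, called the other anti-GFP peaks below. A further 2 peaks, both on chromosome Y, had no anti-Myb peak on their chromosome and were put in neither set. The share is what the rule counts, so it is a description of the selection. The anti-Myb list was shorter, with 3410 peaks. The share thus depends on the lengths of both lists and does not measure how far the antibodies disagree.

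MEL is a mouse erythroleukemia line, an established line of red cell precursors that stopped short of full differentiation. The GFP antibody was used on MEL cells with the label Myb-GFP, and the antibody against Myb on MEL cells without it. No treatment, time point or clone is given for either, and both were grown in the same medium with fetal bovine serum. The series held 2 more MEL libraries, anti-GFP in cells without the Myb-GFP label and IgRab with no antibody, which were not analysed here. How many isolated peaks would also appear in those control libraries was therefore not tested.

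MYB is a transcription factor that binds DNA through repeated helix-turn-helix domains and keeps blood progenitors dividing. Its level drops as red cell precursors mature, and forced expression blocks that maturation in MEL cells. In CUT&RUN, a nuclease tethered to the antibody cuts the DNA around the bound protein, and the released fragments are sequenced. An antibody against a tag and an antibody against the protein itself address different epitopes. The label Myb-GFP is taken to mean that these cells carry Myb joined to GFP, though no label says so in words.

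The isolated peaks were described by where they lay, where they stood in their list and how they were grouped. Every anti-GFP peak was 337 bp wide with a score of 1, and every anti-Myb peak was 313 bp wide with a score of 1, so neither height nor read depth could be used. Each antibody had 1 library. There was no spread between cultures to test against, and no p-value is given. Intervals are exact 95% (Clopper-Pearson) for shares and from order statistics for medians, and they cover the counting of peaks only, although neighbouring peaks are not independent. No mm9 genome or annotation was used, so the regions are named by position, without genes or sequence, and the cell type could not be checked against marker genes.

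Isolation was mostly far beyond the 10 kb limit. The isolated peaks were a median of 116 kb from an anti-Myb centre, with 25% of them under 47.2 kb and 25% over 298 kb. Only 457 of the 5738 (7.96%) lay between 10 and 20 kb. A further 1058 lay at 20 to 50 kb, 1113 at 50 to 100 kb, 1138 at 100 to 200 kb and 1110 at 200 to 500 kb. Distances of 500 to 1000 kb were found for 417 peaks, and 445 (7.76%) were more than 1000 kb away. The other anti-GFP peaks were concentrated at the opposite end: 1122 of the 1587 (70.7%) had an anti-Myb centre within 1 kb, and 465 had one at 1 to 10 kb. The anti-GFP list thus consisted of many peaks beside an anti-Myb centre, few at a few kb, and a broad majority farther than 20 kb.

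The 10 kb limit did not fall in a gap of this distribution. The isolated peaks closest to it were on chromosome 2 at 165724168 to 165724504, with 10005 bp to the anti-Myb centre, and on chromosome 6 at 72297467 to 72297803 and chromosome 15 at 58880913 to 58881249, with 10038 bp each. Just inside it lay peaks on chromosome 19 at 5912442 to 5912778 (9993 bp), chromosome 2 at 166481502 to 166481838 (9977 bp) and chromosome 3 at 97048855 to 97049191 (9948 bp). The range of 5 to 10 kb held 246 peaks and the range of 10 to 20 kb, which is wider, 457.

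Isolated peaks stood later in the anti-GFP list than the others. The files do not say what the rows are sorted by, and position is given here as the share of rows down to a peak, so that a low value means an early row. The median isolated peak stood 54.6% of the way down (interval 53.3% to 55.9%) and the median other peak 32.8% (30.8% to 34.8%), a difference of 21.8 points. The central 50% of the isolated peaks spanned 29.6% to 77.6%, and that of the others 13.0% to 59.5%, so the sets overlapped widely. The rule did not use row order. Row order is nevertheless a property of the same library, and this difference has no test over samples.

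The share of isolated peaks was lowest at the top of the list. Of the 732 peaks in the first 10% of rows, 409 were isolated (55.9%, 52.2% to 59.5%), against 78.3% over the whole list. In the next 10% the share was 70.0% (66.5% to 73.3%), in the fifth it was 78.3% (75.1% to 81.2%), and in the last 10% it was 88.9% (86.5% to 91.1%), with 652 isolated peaks of 733. At the extreme top, 8 of the first 20 rows and 51 of the first 100 were isolated. At the bottom, 93 of the last 100 rows were isolated. Seen from the sets, 7.13% of the isolated peaks and 20.4% of the others fell in the first 10% of rows. Isolated peaks were thus the larger set even in the first 10% of rows, though not in its first 50 rows, of which 22 were isolated.

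**Figure D1:**
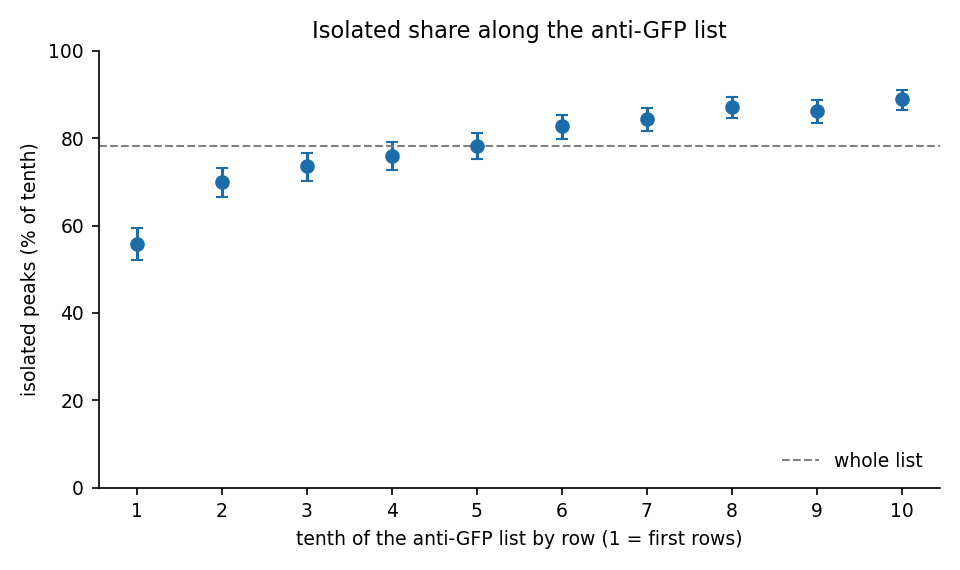
Isolated share of the anti-GFP peaks (y axis, percent) in each 10% of the list by row (x axis, 1 for the earliest rows). Points are shares with exact 95% intervals and the dashed line is the whole list at 78.3%. The share goes from 55.9% in the first 10% of rows to 88.9% in the last.

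Among the isolated peaks themselves, those far from any anti-Myb centre stood later. The median position was 50.2% for isolated peaks at 10 to 20 kb, 49.4% at 20 to 50 kb and 51.7% at 50 to 100 kb. It was 56.8% at 100 to 200 kb, 57.3% at 200 to 500 kb, 60.0% at 500 to 1000 kb and 67.7% (63.5% to 72.3%) beyond 1000 kb. Chromosome X gave 60 of the peaks beyond 1000 kb, the most of any chromosome, and its median isolated peak stood at 67.1%. Whether the trend holds within chromosomes was not tested. Below the limit, the other peaks showed little change with distance, with 32.1% (29.2% to 34.3%) within 1 kb, 34.6% at 1 to 2 kb, 31.4% at 2 to 5 kb and 36.5% (32.4% to 43.5%) at 5 to 10 kb. The intervals on either side of the limit, 32.4% to 43.5% at 5 to 10 kb and 44.4% to 53.6% at 10 to 20 kb, did not overlap. Peaks at 1 to 10 kb, which do not touch an anti-Myb peak, therefore stood nearer in position to the peaks beside an anti-Myb centre than to the isolated ones. Without the peaks that had another anti-GFP centre within 10 kb, the medians across the limit were 40.4% and 50.2%.

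**Figure D2:**
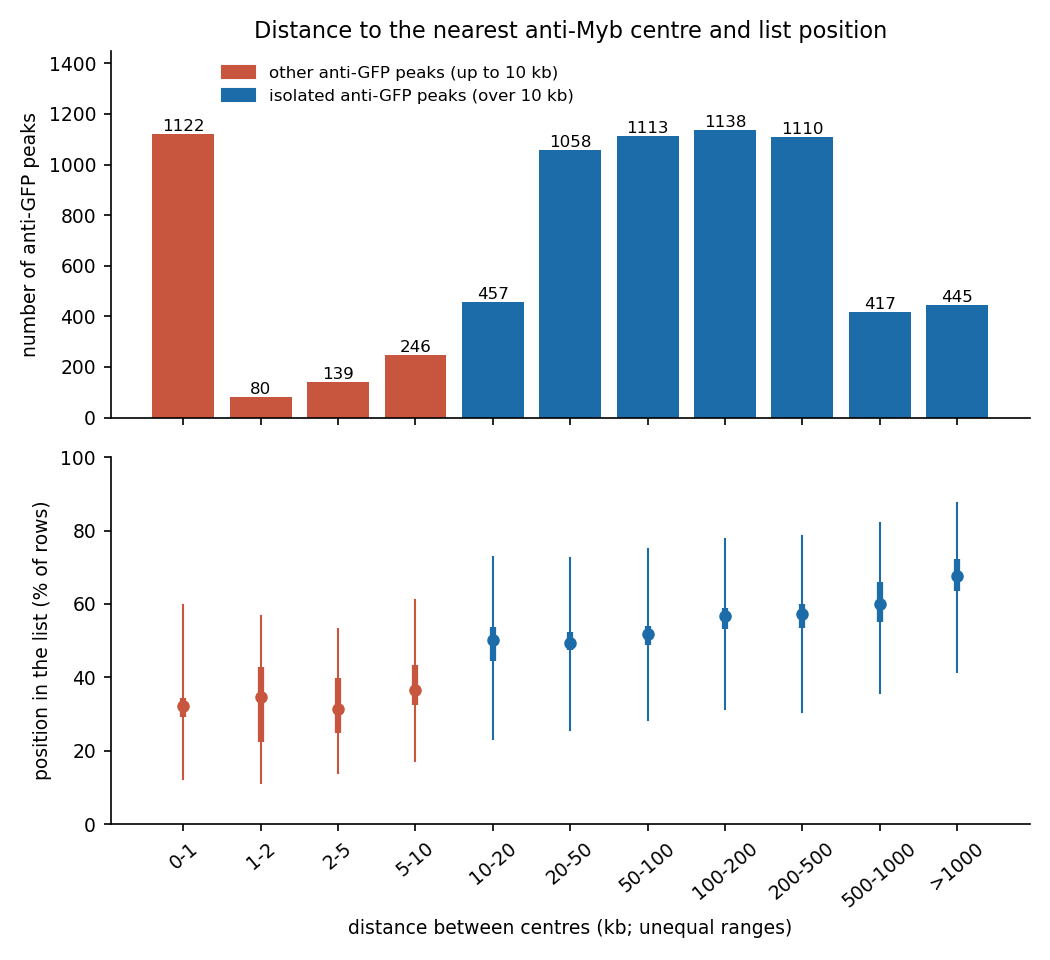
The upper bars give the number of anti-GFP peaks by distance to the nearest anti-Myb centre (kb, unequal ranges), with isolated peaks in blue and others in red. The lower points give the median position in the list (percent of rows) with its 95% interval as a thick line and the central 50% of peaks as a thin line, from 32.1% within 1 kb to 67.7% beyond 1000 kb.

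The later position of isolated peaks was seen within chromosomes as well. On all 20 of chromosomes 1 to 19 and X, the median isolated peak stood later than the median other peak, by 5.94 points on chromosome 14 up to 29.7 points on chromosome 18. Within windows of 10 Mb the same held less uniformly. Of 127 windows with at least 10 isolated and 5 other peaks, the isolated median was later in 111, and the median difference over the windows was 20.2 points (central 50% 8.90 to 29.9).

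The first 10 isolated peaks by row came from 5 chromosomes. Rows 1 and 2 of the list were on chromosome 19, at 29722380 to 29722716 and 29429748 to 29430084, with 235 kb and 57.3 kb to an anti-Myb centre. Row 9, at 59424687 to 59425023, and row 23, at 47036388 to 47036724, were on chromosome 19 too, at 54.8 kb and 21.9 kb. Chromosome 3 gave row 7 at 96205548 to 96205884, row 8 at 95761583 to 95761919 and row 18 at 95732430 to 95732766. The last of these were 29.2 kb apart, and the 3 peaks were 68.8, 75.2 and 46.1 kb from an anti-Myb centre. Row 5 was on chromosome 9 at 22193924 to 22194260, 64.0 kb away. Row 19 was on chromosome 6 at 47600966 to 47601302, 379 kb away, and row 21 on chromosome 11 at 95171222 to 95171558, 46.9 kb away. None of the 10 had another anti-GFP centre within 10 kb, the closest being 12.8 kb from row 7.

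Early isolated peaks were unevenly spread over chromosomes. Chromosomes 19 and 3 had 29 of 218 (13.3%) and 30 of 227 (13.2%) of their isolated peaks in the first 10% of rows, against 7.13% of all isolated peaks, and chromosome 15 had 27 of 256 (10.5%). Chromosome 10 had 10 of 294 and chromosome X 6 of 152. On chromosomes 19, 3 and 15 the other anti-GFP peaks stood early as well, with medians of 24.9%, 27.1% and 18.96%. The median of all other peaks was 32.8%. On chromosomes 10 and X the median other peak stood at 25.7% and 43.4%. An early position on chromosomes 19, 3 and 15 was thus not limited to the isolated peaks. Among windows of 10 Mb, picked after their values were seen, chromosome 9 from 20 to 30 Mb had 11 of 25 isolated peaks in the first 10% of rows and an isolated median of 13.8%. On chromosome 1 from 120 to 130 Mb this held for 8 of 17 isolated peaks, with a median of 15.4%. On chromosome 3 from 90 to 100 Mb it held for 13 of 46, with a median of 17.8%, and on chromosome 19 from 40 to 50 Mb for 12 of 38, with a median of 19.2%. The other anti-GFP peaks of these windows stood early too, with medians of 5.99% (9 peaks), 19.1% (4 peaks), 8.43% (8 peaks) and 10.2% (24 peaks) in the same order, so the early rows there came from both sets. At the other end, 14 isolated peaks on chromosome 12 from 10 to 20 Mb had a median of 86.0%. The isolated medians of the 196 windows with at least 10 isolated peaks thus ran from 13.8% to 86.0%. These are the extremes of many windows, some with few peaks. Whether position depends on the segment of the genome was not tested.

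The isolated share itself ranged from 73.2% to 85.4% between chromosomes. It was highest on chromosome X, with 152 of 178 anti-GFP peaks (85.4%, 79.3% to 90.2%), chromosome 14 with 192 of 228 (84.2%, 78.8% to 88.7%) and chromosome 6 with 273 of 333 (82.0%, 77.4% to 86.0%). It was lowest on chromosome 17, with 295 of 403 (73.2%, 68.6% to 77.5%), chromosome 5 with 342 of 457 (74.8%, 70.6% to 78.8%) and chromosome 18 with 157 of 208 (75.5%, 69.1% to 81.2%). For 17 of the 20 chromosomes the interval included the 78.3% of the whole list. The rule depends on how many anti-Myb peaks a chromosome holds, and these moved with the share at its upper end. Chromosomes X and 14 had 0.426 and 0.655 anti-Myb peaks per Mb, the lowest of the 20, and chromosome 17 had 2.31. Chromosomes 11 and 19 had more, at 2.55 and 2.49, with shares of 77.6% and 79.0%. Sequences outside these chromosomes held 8 anti-GFP peaks, of which 4 were isolated.

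**Figure D3:**
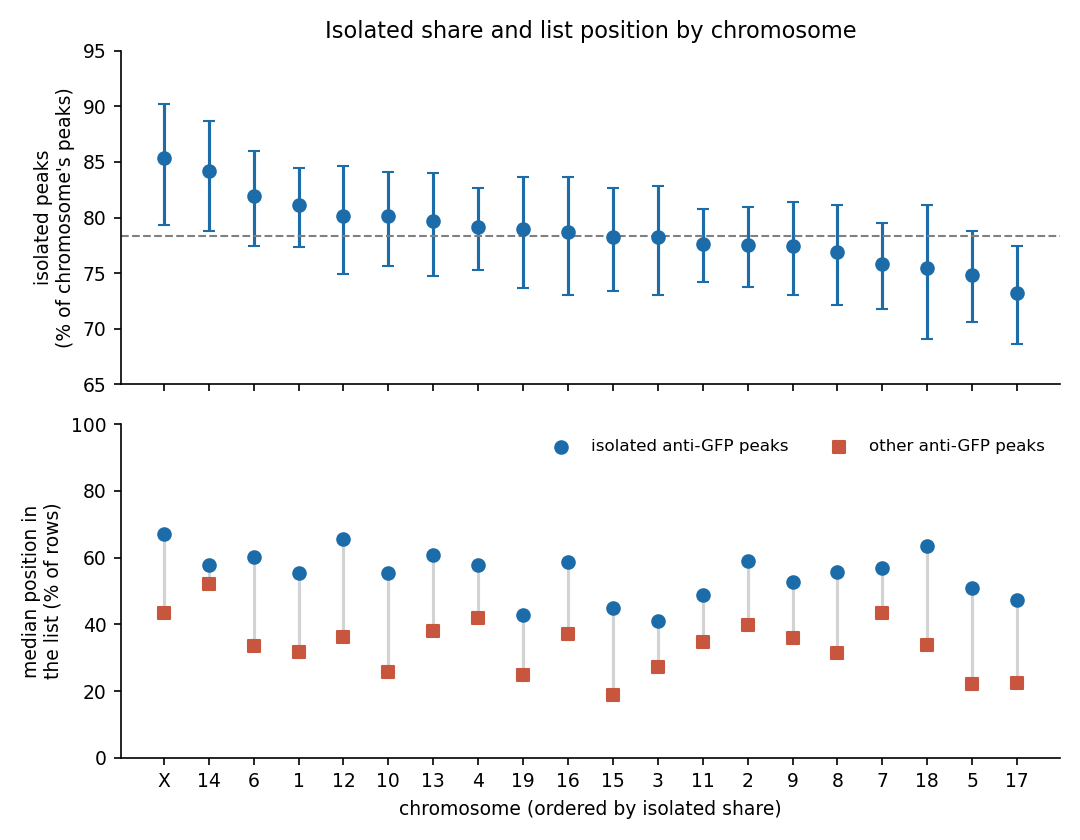
Upper panel: isolated share of each chromosome's anti-GFP peaks (percent, axis from 65) with exact 95% intervals, ordered from chromosome X at 85.4% to chromosome 17 at 73.2%, and the whole list as a dashed line. Lower panel: median position in the list (percent of rows) of isolated peaks (blue circles) and other peaks (red squares), with the isolated peaks later on all 20 chromosomes.

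Chromosome X also had the most isolated peaks at long distance. There, 60 of 152 isolated peaks (39.5%) were more than 1000 kb from an anti-Myb centre, and the median distance was 561 kb. Chromosome 6, the next by this measure, had 33 of 273 (12.1%), and chromosome 11 had 10 of 502 (1.99%). The single peaks farthest from an anti-Myb centre were on chromosome 14 at 87540607 to 87540943 (10608 kb), on chromosome X at 23269587 to 23269923 (10220 kb) and 22147668 to 22148004 (9098 kb), and on chromosome 4 at 74923834 to 74924170 (7979 kb) and 70071695 to 70072031 (7894 kb). In the anti-GFP list too these 5 were lonely, with 1122 kb or more to the next anti-GFP centre. Both chromosome 4 peaks and the chromosome 14 peak stood late in the list, between 88.1% and 98.8% of the way down, and the chromosome X peaks at 60.0% and 38.7%.

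Isolated peaks often lay several to a stretch between anti-Myb peaks. By the rule, short stretches can hold none, and long ones have more room, so these counts follow stretch length in part. No number expected from stretch length was computed. The anti-Myb list left 3385 stretches between neighbouring centres, and 1796 of these held 5636 isolated peaks. In 595 stretches there was 1 isolated peak, in 814 there were 2 to 4, in 326 there were 5 to 9 and in 61 there were 10 or more. The other 102 isolated peaks lay outside the outermost anti-Myb centres of their chromosome. The 61 fullest stretches held 736 isolated peaks and ranged from 0.258 to 22.1 Mb in length, with a median of 1.84 Mb, so their peak density differed widely.

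The 5 stretches with the most isolated peaks, with a tie for the last place, differed in length and density. A 1.12 Mb stretch of chromosome 11 held 17, between 59005029 and 60024490, which is 15.2 per Mb. A 0.771 Mb stretch of chromosome 15 held 16, between 78765411 and 79501722, or 20.7 per Mb, and a 2.57 Mb stretch of chromosome 2 held 20, between 125450330 and 127886647, or 7.78 per Mb. Sparser stretches made up the rest: 20 isolated peaks lay in 5.57 Mb of chromosome 6, between 47545465 and 52663418, and 17 in 22.1 Mb of chromosome X, between 70163207 and 90497215, which is 3.59 and 0.769 per Mb. Over the 20 chromosomes the isolated peaks came to 2.26 per Mb. The chromosome X peaks stood late, with a median of 87.8%, and those of chromosomes 11 and 15 earlier, at 37.1% and 38.3%. A shorter and denser stretch of chromosome 4 also held 16 isolated peaks, with a later median position than the chromosome 15 stretch. Of these tied stretches the one with the earliest row was taken, so the early position of the chromosome 15 stretch follows in part from that choice. The chromosome 6 stretch contained row 19 of the list but had a median of 69.3%.

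**Figure D4:**
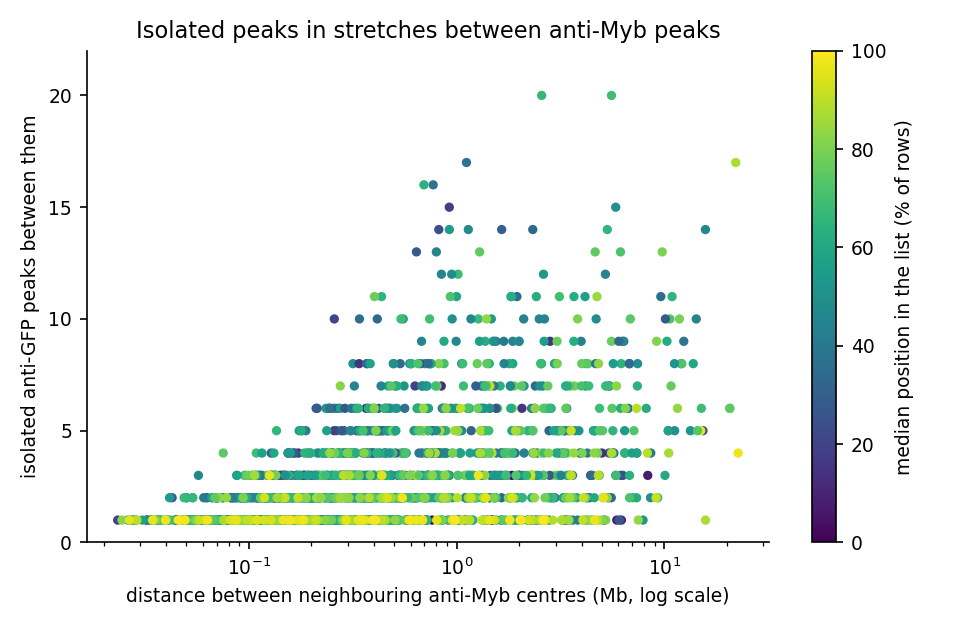
Each point is a stretch between neighbouring anti-Myb centres that holds isolated anti-GFP peaks, by its length (Mb, log scale) and the number of isolated peaks in it, coloured by their median position in the list (percent of rows). Stretches with 10 or more isolated peaks run from 0.258 to 22.1 Mb, and the longest of them, on chromosome X with 17 peaks, is among the latest in the list.

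Isolated peaks had fewer close neighbours in their own list than the others taken as a whole. Another anti-GFP centre lay within 10 kb of 1005 isolated peaks (17.5%, 16.5% to 18.5%) and of 360 other peaks (22.7%, 20.6% to 24.8%). With limits of 5, 20 and 50 kb for isolation the difference of -5.17 points shrank to -1.56, -2.52 and -2.68 points. This difference sat in the others at 1 to 10 kb from an anti-Myb centre, where 150 of 465 (32.3%, 28.0% to 36.7%) had such a neighbour. Among the 1122 others within 1 kb it was 210 (18.7%, 16.5% to 21.1%), with an interval that overlapped that of the isolated peaks. The rule bears on this comparison, since an anti-GFP peak less than 10 kb from a second one that sits on an anti-Myb centre will itself lie within or near 10 kb of that centre. Of the 150 grouped peaks at 1 to 10 kb, 112 (74.7%) had a neighbour that lay within 1 kb of an anti-Myb centre. Of the 353 peaks at 1 to 10 kb without such a neighbour, 38 (10.8%) had any within 10 kb.

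At shorter range the intervals of the sets overlapped. Within 5 kb, 10.1% of isolated peaks (9.37% to 10.9%) and 10.6% of the others (9.11% to 12.2%) had another anti-GFP centre, and within 1 kb the shares were 5.93% and 6.18%. At longer range the isolated peaks were the sparser ones: 60.6% (59.3% to 61.8%) had an anti-GFP neighbour within 50 kb, against 66.7% (63.8% to 69.4%) of the others within 1 kb of an anti-Myb centre. The rule bears on this range too, since it takes isolated peaks from places away from anti-Myb centres. The shares at 50 kb were also not matched for list position. Neighbours were rarer late in the list in both sets. Of the isolated peaks, 17.8% had one within 10 kb in the first 10% of rows, 23.0% in the next and 10.4% in the last. The share was higher among the others in 8 of the 10 steps of the list, with overlapping intervals in each step. These others include those at 1 to 10 kb from an anti-Myb centre.

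Pairs of isolated peaks were densest, per kb of distance, below 2 kb. Between adjacent isolated peaks, 170 distances were under 1 kb, the smallest being 637 bp, and 84 were 1 to 2 kb. From 2 to 5 kb there were 39 pairs, or 13.0 per kb, and from 5 to 10 kb 221 pairs, or 44.2 per kb. The spacing of isolated neighbours thus had a minimum between 2 and 5 kb. The other peaks showed this dip too. Shares with the closest anti-GFP neighbour at 0.7 to 1, 2 to 5 and 5 to 10 kb were compared. They were 5.54%, 1.29% and 7.37% for isolated peaks, and 5.70%, 0.802% and 8.82% for others within 1 kb of an anti-Myb centre. Others at 1 to 10 kb from an anti-Myb centre gave 5.16%, 2.15% and 20%. The dip was thus not particular to isolated peaks. Isolated partners also stood close in the list when they lay close on the chromosome. The positions of both peaks differed by a median of 5.49 points (central 50% 2.21 to 11.3) below 1 kb, by 18.9 points (9.54 to 30.7) at 5 to 10 kb and by 25.3 points (11.3 to 44.3) at 20 to 50 kb. The sources used here do not give the smallest spacing or the local filters that the authors set in peak calling, and their part in this spacing was not tested.

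**Figure D5:**
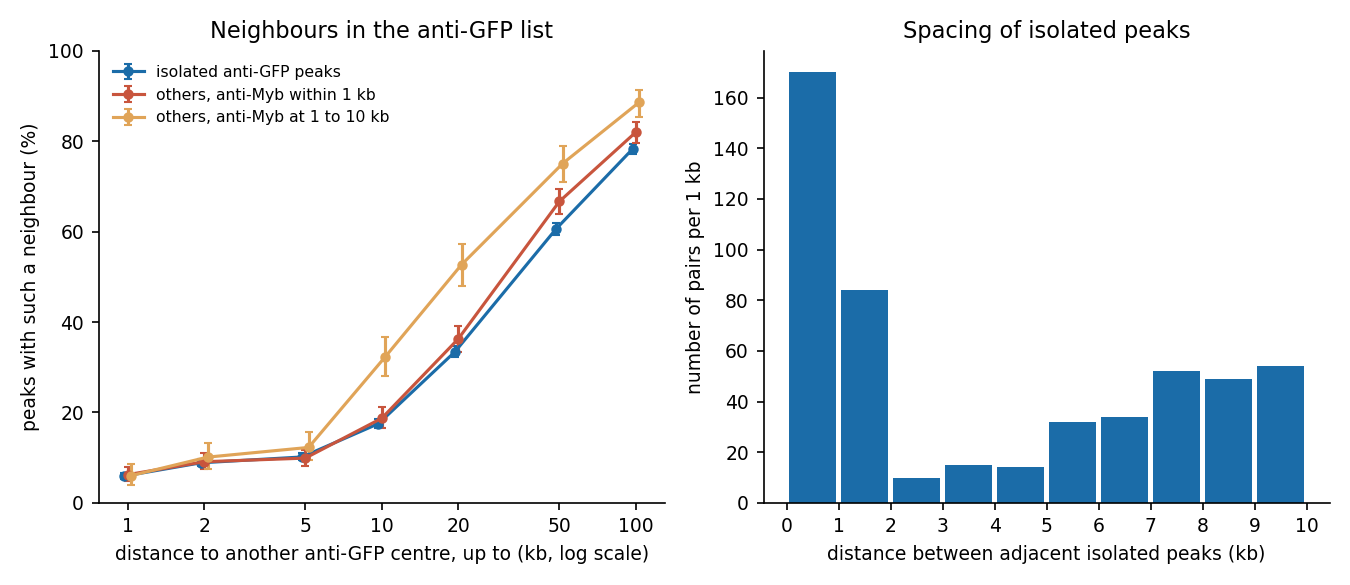
Left: share of peaks (percent, exact 95% intervals) with another anti-GFP centre within the distance on the x axis (kb, log scale), for isolated peaks, others with an anti-Myb centre within 1 kb and others with one at 1 to 10 kb, which are 17.5%, 18.7% and 32.3% at 10 kb. Right: number of pairs of adjacent isolated peaks by distance in steps of 1 kb, with 170 pairs below 1 kb and 10 between 2 and 3 kb.

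Groups were formed by linking anti-GFP centres no more than 10 kb from the next. Alone in this sense were 4733 isolated peaks (82.5%). Groups of 2 numbered 591, of which 444 held only isolated peaks and 10 held 1 isolated and 1 other peak. Of 56 groups with 3 or more peaks, 30 held only isolated peaks, 7 were mixed and 19 held none. Of the 1005 isolated peaks with a neighbour, 988 (98.3%) had an isolated one. Both the linking and the rule use 10 kb on the same coordinates, and 78.3% of all anti-GFP peaks were isolated, so neighbours share their set largely by construction and nothing is read from this count.

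The group with the most isolated peaks lay on chromosome 17, where 9 peaks spanned 36.4 kb from 15097158 to 15133586, 88.1 kb from the nearest anti-Myb centre. Its peaks did not stand together in the list. The earliest, at 15114976 to 15115312, was row 573 and the next, at 15127416 to 15127752, row 1345, while the other 7 were between rows 3201 and 5469. On chromosome 6, 5 isolated peaks spanned 19.97 kb from 70742485 to 70762457, at rows 1504 to 3778 and 83.3 kb from an anti-Myb centre. Groups of 4 lay on chromosome 11 from 33901886 to 33910724 (rows 1290 to 4888, 53.5 kb from an anti-Myb centre) and on chromosome 10 from 19304965 to 19322017 (rows 1736 to 6773, 107 kb). The fifth place was shared by 26 groups of 3 isolated peaks, and the one with the earliest row was taken. Its early position therefore follows from that choice. This group lay on chromosome 8 from 26302724 to 26311740, at rows 347 to 1355, with a median position of 7.93%. It was 37.4 kb from an anti-Myb centre.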

How the data were processed

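CUT&RUN was done on MEL cells with 1 library per group, and the peak lists of 2 of the 4 libraries were used. Per the submitters' processing notes, the build was mm9 and the tools were HOMER 4.10.3, STAR 2.7.9a, Trim Galore 0.6.6, deepTools 3.4.2, Picard 2.17.11 and SAMtools 1.11. The sources used here do not give their roles, the peak threshold or the control, which decide which peaks are listed. In the deposited lists each peak had a score of 1, and depth is unknown. Coordinates deposited by the authors, of no other unit than bp, are printed 1-based.

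Centres, distances, groups and shares were computed with pandas 2.3.3, SciPy 1.17.1 and NumPy 2.4.6 under Python 3.11.15, and tested on simulated lists. bedtools 2.31.1 gave the same 5738 members. The members, and the features compared, were chosen with earlier results of these data known. By the rule for naming, the first 10 isolated peaks, the 5 farthest, the 3 on either side of the limit, 5 groups, 5 stretches and 6 chromosomes were named. Ties among groups and among stretches were settled by the earliest row. Score and width were constant, so row order was used. Sequence features and gene positions were not analysed here, since the gene table used is of GRCm38.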

Additional observations from a re-analysis of the deposited data

How the results depend on the processing

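The isolated share followed its definition. It was 81.7% with a limit of 5 kb, 72.1% with 20 kb and 57.6% with 50 kb, 70.7% among the earliest 50% of anti-GFP rows, and 87.6% against the earliest 50% of anti-Myb rows, which removes possible partners. Isolated peaks stood later under all 11 alternatives, by 16.0 points with a limit of 50 kb, by 14.6 points among the earliest 50% of anti-GFP rows, and by 18.8 to 24.2 points under the other 9. For the earliest 50% of rows, position was a percent of those rows only. Each of its points covers fewer rows than a point of the whole list, so the 14.6 points are not on the same scale. The difference in neighbours (isolated minus other peaks) kept its sign under all 11 alternatives but was as small as -0.44 points for neighbours within 5 kb, -1.56 points with a limit of 5 kb and -1.20 points against others within 1 kb of an anti-Myb centre, and was -2.52 and -2.68 points with limits of 20 and 50 kb, against -5.17 points as reported. The combined interval included 0 in 4 of these 5, the limit of 50 kb being the exception. It was -14.7 points against others at 1 to 10 kb and -8.55 points for neighbours within 50 kb. The comparisons with parts of the other peaks were chosen after seeing the data. The span from the lowest to the highest chromosome was 12.2 points, and 27.0 points with a limit of 50 kb, with chromosomes 17 and X at the ends each time. Alternatives for sequence and gene positions were not run, for want of an mm9 genome. No paired analysis was possible because each group had 1 library. Without read depth, a region missing from the anti-Myb list was not listed under the authors' threshold, which does not show it to be unbound.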

Other observations

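The ends of chromosomes held several runs of isolated peaks beyond the outermost anti-Myb centre, 54 after the last centre and 48 before the first. On chromosome 10, 15 isolated peaks followed the last anti-Myb centre, from 127173735 to 128229196, within 1.09 Mb of it. On chromosome 13, 10 isolated peaks followed the last centre, from 113145341 to 120252113, up to 7.18 Mb away. On chromosome 11, 8 isolated peaks preceded the first centre, from 3165953 to 3366487. These runs were picked after their values were seen.

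In 6 windows of 10 Mb with at least 10 isolated peaks, every anti-GFP peak was isolated. They lay on chromosome X from 40 to 50, 70 to 80 and 90 to 100 Mb, on chromosome 6 from 40 to 50 and 60 to 70 Mb, and on chromosome 4 from 10 to 20 Mb. The window on chromosome X from 70 to 80 Mb held 16 isolated peaks and no anti-Myb peak, and their median position was 85.8%. The lowest isolated share among the 196 windows with at least 10 isolated peaks was 59.3%, on chromosome 11 from 40 to 50 Mb, with 16 of 27 peaks isolated and 20 anti-Myb peaks.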
